A study of Homo sapiens with 6 samples.

Results

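NF-κB is a family of dimeric transcription factors. The 10 genes described here encode its subunits and proteins that hold it in check or regulate its activation. They are the 5 subunit genes (NFKB1, NFKB2, REL, RELA, RELB), the IκB genes NFKBIA, NFKBIB and NFKBIE, the A20 gene TNFAIP3 and BIRC3, which encodes the ubiquitin ligase cIAP2. They were chosen by gene symbol, with earlier results of these data known. Each was found among the 22701 genes of the expression table. All 10 reached the mean of 1 FPKM (fragments scaled by gene length and library total) that was required for testing, as did 10695 genes in total, and REL did so at a mean of only 1.11 FPKM.

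In resting cells IκB proteins cover the DNA-binding Rel domain of NF-κB dimers and keep them in the cytoplasm. In the canonical route, receptors for TNF, interleukin-1 or microbial products activate the IKK kinases, IκBα is degraded, and dimers such as p50 (from NFKB1) with RelA enter the nucleus. In the slower non-canonical route, the kinase NIK lets the p100 precursor (from NFKB2) be processed to p52, which pairs with RelB. NF-κB switches on some of the genes of its own inhibitors and subunits, such as NFKBIA, and transcripts of those genes serve as readouts of the pathway. In hepatic stellate cells NF-κB is known for promoting survival and inflammatory cytokine output.

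The 6 libraries were made from RNA of LX-2, an immortalised line of human hepatic stellate cells, the collagen-producing cells of the liver. In 3 of them the cells had received TGF-β, the main fibrogenic cytokine of stellate cells, at a stated 5 µg/mL (a unit that was not checked), and the submitters' word for giving both agents is transfection, read here as treatment. The other 3 came from cells given the same TGF-β and 20 µM ligustilide (LIG), a phthalide of Angelica and Ligusticum roots. Every group carried TGF-β, no library without it was analysed here, and neither the treatment time nor separate cultures are stated, so a p-value here covers no more than the variation among these 6 libraries. The comparison asked what LIG does to transcripts of cells that receive TGF-β, and TGF-β alone is written below as without LIG.

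Library totals, recovered from the spacing of the FPKM values rather than read from counts, lay between 38401783 and 39260090 fragments. Fragments recovered for the listed genes summed to 100.77% to 101.24% of these totals, an excess whose cause was not tested. Of 16 mesenchymal and stellate markers 10 had a mean of at least 1 FPKM. VIM and COL1A1 were the highest, while the stellate markers DES, RELN and GFAP stayed at or under 0.0193 FPKM in every library. Of the markers of other cell types found in the table, 1 of 5 for hepatocytes (SERPINA1, 3.20 to 4.86 FPKM), 1 of 7 for macrophages (CD68, 12.1 to 14.9 FPKM) and 2 of 4 for cholangiocytes or epithelium (SOX9, 9.80 to 11.9 FPKM, and KRT7, 1.11 to 2.11 FPKM) reached that mean, and none of 5 for lymphocytes or 6 for endothelium did. The mesenchymal and stellate markers summed to 3280 to 3469 FPKM without LIG and to 2911 to 3286 FPKM with LIG. COL1A1 was at 618 to 691 and 496 to 515 FPKM. Of these markers 2 passed the limma test used below, where 0.692% of all genes did. Summed FPKM without and with LIG ran from 3.54 to 4.07 and 3.31 to 4.89 for hepatocyte markers, from 13.7 to 15.8 and 14.8 to 16.5 for macrophage markers, and from 13.6 to 13.9 and 11.2 to 11.9 for cholangiocyte or epithelial markers. Leukocyte PTPRC and epithelial EPCAM were near 0, at up to 0.0160 and 0.0659 FPKM. The part of these other markers in the results was not tested. TGF-β replicate 2 and LIG replicate 3 stood apart from the other 4 libraries in the balance of short and long genes. In LIG replicate 3, genes of up to 2487 bases (the lower quartile) had a median log2 difference of 0.25 from the mean of the other 2 LIG libraries, and genes of 6477 bases or more (the upper quartile) one of -0.19. The same medians in TGF-β replicate 2 were 0.16 and -0.09. Results for members are therefore given with and without these libraries.

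Promoter sequences are shown first because most of these genes carry a form of the DNA element that NF-κB dimers bind. RefSeq promoters (GRCh38.p14, 250 bases before to 50 after a transcription start) matched 8 of the 10 genes with 13 starts, and none matched for RELB or NFKBIE. The motif searched, on both strands, was a form of the κB element that reads GGG, then any 2 bases, then TTTCC. It was picked after a look at wider forms, so its count is a description. It occurred in 8 of the 13 promoters and in 7 of the 8 genes, the exception being RELA. Of all 35116 RefSeq promoters, 1.91% held it, and 2.95% of the 8740 tested genes with a promoter had it in at least 1. The wider κB consensus gave the same 7 genes and was found in 17.32% of the tested genes with a promoter and 11.27% of all promoters. Below, 80 bases upstream of each such start are written 5′ to 3′ on the gene's strand, with the match in capitals. A match on the other strand appears as its reverse complement, GGAAA, any 2 bases, CCC.

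NFKB1, chr4:102501275-102501354 (plus strand): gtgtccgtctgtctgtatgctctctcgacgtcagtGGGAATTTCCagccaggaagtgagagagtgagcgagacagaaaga
NFKB2, upstream start, chr10:102394465-102394544 (plus strand): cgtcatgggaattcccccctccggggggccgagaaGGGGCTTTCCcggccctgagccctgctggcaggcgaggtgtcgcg
NFKB2, downstream start, chr10:102395625-102395704 (plus strand): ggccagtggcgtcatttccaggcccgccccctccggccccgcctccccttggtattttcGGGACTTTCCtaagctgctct
REL, chr2:60881493-60881572 (plus strand): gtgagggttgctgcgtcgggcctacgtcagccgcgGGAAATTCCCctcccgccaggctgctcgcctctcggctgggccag
NFKBIA, chr14:35404786-35404865 (minus strand): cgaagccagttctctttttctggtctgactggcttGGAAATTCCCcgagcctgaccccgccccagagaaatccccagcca
NFKBIB, chr19:38899889-38899968 (plus strand): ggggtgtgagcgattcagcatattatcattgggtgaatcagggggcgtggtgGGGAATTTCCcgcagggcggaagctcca
TNFAIP3, chr6:137867157-137867236 (plus strand): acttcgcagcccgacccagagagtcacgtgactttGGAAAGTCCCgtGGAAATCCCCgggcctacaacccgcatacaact
BIRC3, chr11:102317250-102317329 (plus strand): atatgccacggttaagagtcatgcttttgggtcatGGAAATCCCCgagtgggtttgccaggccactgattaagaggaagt

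The capitals of NFKB1, NFKBIB, REL and NFKBIA spell the same element, GGGAATTTCC, read on the gene's strand in the first pair and on the other strand in the second. NFKB2 had 1 match at each of 2 starts, and TNFAIP3 had 2 matches 12 bases apart (GGGACTTTCC and GGGGATTTCC, both on the other strand). Counted from the start, the match lay farthest away in BIRC3 (positions -199 to -190) and nearest at the downstream start of NFKB2 (-21 to -12), with NFKB1 at -49 to -40. The antioxidant response core TGACNNNGC, the element of NRF2-driven genes, was present in NFKBIA alone among the 8 genes, as TGACCCCGC at positions -65 to -57. It occurred in 19.39% of the tested genes with a promoter and 13.35% of all promoters. Presence of such letters describes the window and says nothing of binding in these cells.

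Within the family, RELA transcripts were the most abundant and REL transcripts the least, with a ratio of 44.2 between their means over all 6 libraries. Without LIG the order of FPKM was RELA (46.1 ± 1.97, SD, n = 3), NFKBIA (34.95 ± 2.44), NFKB1 (21.6 ± 0.78), NFKB2 (17.2 ± 0.76), NFKBIB (16.02 ± 0.49), RELB (8.34 ± 0.25), NFKBIE (7.55 ± 1.01), TNFAIP3 (4.96 ± 0.27), BIRC3 (4.87 ± 0.26) and REL (1.12 ± 0.18). The ranges over libraries overlapped for the neighbours NFKB2 and NFKBIB, RELB and NFKBIE, and TNFAIP3 and BIRC3, and the other neighbours were apart. By the mean over all 6 libraries, RELA and NFKBIA lay above 89.0% and 85.6% of all genes tested, and REL above 1.65%. Of the summed FPKM of the 5 subunits, RELA made up 48.9% ± 0.27 with TGF-β and 47.1% ± 1.1 with LIG, and REL 1.19% ± 0.14 and 1.00% ± 0.38. With LIG the order was the same except that BIRC3 and TNFAIP3 changed places, and NFKB1 then also overlapped NFKB2.

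**Figure D1:**
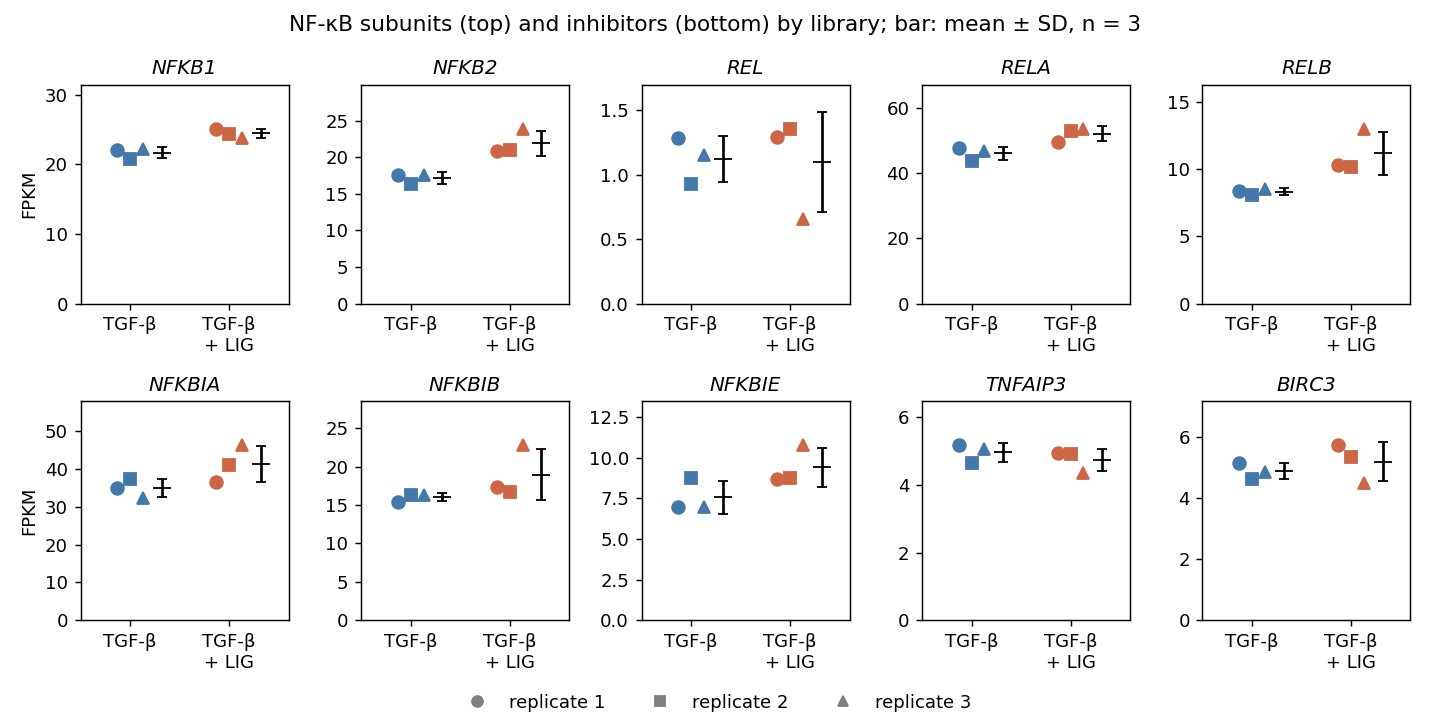
FPKM of each gene (vertical axes, from 0, 1 scale per gene) in the 3 libraries with TGF-β (blue) and the 3 with TGF-β and LIG (orange), with marker shape for the replicate and a bar for mean ± SD. The LIG libraries lie above the TGF-β libraries for NFKB1, NFKB2, RELA, RELB and NFKBIB, and the groups overlap for the other 5 genes.

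With LIG, transcripts of 4 of the 5 subunits and of the IκB genes had higher means, by ratios of 1.13 to 1.34, and those of REL, TNFAIP3 and BIRC3 lay within 0.955 to 1.07 of the TGF-β level. None of these differences passed the test across all genes. By limma's moderated test on log2(FPKM + 1), 0 of 10 members had an adjusted p under 0.05, where 0.692% of all 10695 genes did (Benjamini-Hochberg). Limma voom on recovered fragments also called 0. At an unadjusted limma p under 0.05, 6 of the 10 were higher with LIG and none lower, where 4.2% of all genes were higher and 8.41% differed either way. A log2 change above 0 was seen in 8 of the 10, against 60.9% of all genes. In 5 of the 10 all LIG libraries lay above all TGF-β libraries, against 9.07% of all genes, and no member had the opposite arrangement, against 6.73%. The median log2 change was 0.19 over the members and 0.03 over all genes tested. As the members were chosen with earlier results of these data known, these shares and medians are a description. In RNA of whole cultures, a change in the share of cells of a state cannot be told apart from a change in RNA per cell.

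In the fit of all 6 libraries the subunits of the non-canonical route had the largest log2 changes of the 10, while that of NFKBIE exceeded both when TGF-β replicate 2 was left out (0.38), when LIG replicate 3 was left out as well (0.29) and with quality weights (0.29). With quality weights NFKBIA (0.27) also exceeded both. When LIG replicate 3 alone was left out, NFKBIE (0.19) was below NFKB2 and RELB (0.27 each). NFKB2 (chromosome 10, 102394110 to 102402529) encodes p100, which is both the precursor of p52 and an inhibitor that retains RelB. Its level was 17.6, 16.3 and 17.6 FPKM without LIG (replicates 1, 2 and 3 in that order throughout) and 20.9, 20.9 and 23.9 FPKM with LIG. All LIG libraries lay above all TGF-β libraries, and LIG replicate 3 was the highest. The log2 change was 0.33 ± 0.07 (SE; 95% confidence interval 0.16 to 0.50, limma adjusted p = 0.151), which put NFKB2 above 99.3% of all genes tested. RELB (chromosome 19, 45001430 to 45038198), the p52 partner, was at 8.39, 8.07 and 8.56 FPKM without LIG and at 10.3, 10.2 and 13.02 FPKM with LIG. Here too the groups did not overlap, and LIG replicate 3 stood well above the other 2 LIG libraries. Its log2 change was 0.37 ± 0.10 (interval 0.16 to 0.59, limma adjusted p = 0.231). The ratio of RELB to NFKB2 stayed between 0.476 and 0.545 in all 6 libraries.

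Subunits of the canonical dimer had smaller log2 changes in the fit of all 6 libraries, with intervals that overlapped those of NFKB2 and RELB. A difference between the routes was not tested. NFKB1 (chromosome 4, 102501329 to 102617302), the p105 and p50 gene, was at 22.1, 20.7 and 22.1 FPKM without LIG and at 25.1, 24.4 and 23.8 FPKM with LIG. The groups were apart and each was tight, with coefficients of variation of 3.61% and 2.69%. NFKB1 had a log2 change of 0.17 ± 0.06 (interval 0.03 to 0.31, limma adjusted p = 0.459). RELA (chromosome 11, 65653596 to 65663094), the transactivating subunit p65, was at 47.7, 43.9 and 46.8 FPKM without LIG and at 49.5, 53.1 and 53.7 FPKM with LIG. Its groups were apart by the gap between TGF-β replicate 1 and LIG replicate 1, and the log2 change was 0.17 ± 0.07 (interval 0.02 to 0.32, limma adjusted p = 0.513). RELA exons overlap the antisense gene AP001362.2, and the use of strand in counting is not stated.

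Within a library, NFKB2 was at 0.798, 0.785 and 0.795 of the NFKB1 level with TGF-β and at 0.831, 0.858 and 1.004 with LIG. RELB was at 0.176, 0.184 and 0.183 of RELA with TGF-β and at 0.208, 0.192 and 0.242 with LIG. Both ratios of non-canonical to canonical subunit were thus higher in each LIG library than in each TGF-β library, with LIG replicate 3 the highest. The share of other gene pairs with such a gap was not computed. GC content was higher in NFKB2 (62.4%) than in NFKB1 (50.1%) and in RELB (65.4%) than in RELA (57.1%). The part of GC content in these ratios was not tested. Ratios of NFKBIA to RELA and of TNFAIP3 to NFKBIA overlapped between the groups.

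REL (chromosome 2, 60881521 to 60931610) encodes c-Rel, the subunit best known from lymphocytes. It was at 1.29, 0.932 and 1.15 FPKM without LIG and at 1.29, 1.36 and 0.655 FPKM with LIG. The lowest value was LIG replicate 3, and the groups overlapped. Its coefficient of variation was 35.2% over the LIG libraries, while counting error alone gives 5.84% in the library with the fewest REL fragments (293). The log2 change of REL was -0.03 ± 0.14 (interval -0.35 to 0.29, limma adjusted p = 0.986), and without LIG replicate 3 it was 0.13 (adjusted p = 0.577). REL exons overlap AC010733.2 on the same strand.

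Among the inhibitors, NFKBIA (chromosome 14, 35401511 to 35404749) encodes IκBα, the fast feedback inhibitor that NF-κB itself induces. It was at 35.1, 37.3 and 32.5 FPKM without LIG and at 36.6, 41.2 and 46.4 FPKM with LIG. LIG replicate 1 lay below TGF-β replicate 2, so the groups overlapped. NFKBIA had a log2 change of 0.23 ± 0.10 (interval 0.01 to 0.45, limma adjusted p = 0.557), which was 0.15 without LIG replicate 3. NFKBIB (chromosome 19, 38899700 to 38908893), the IκBβ gene, was at 15.5, 16.3 and 16.3 FPKM without LIG and at 17.4, 16.7 and 22.8 FPKM with LIG. Its groups did not overlap, but most of the difference came from LIG replicate 3: the log2 change was 0.22 ± 0.11 (interval -0.04 to 0.47, limma adjusted p = 0.688) with that library and 0.08 without it. NFKBIB exons overlap those of SIRT2 on the opposite strand. NFKBIE (chromosome 6, 44258166 to 44265788), the IκBε gene, was at 6.97, 8.72 and 6.97 FPKM without LIG and at 8.65, 8.77 and 10.8 FPKM with LIG. TGF-β replicate 2 reached the LIG range, and the log2 change was 0.28 ± 0.11 (interval 0.03 to 0.53, limma adjusted p = 0.520). Leaving out TGF-β replicate 2 gave 0.38, and leaving out LIG replicate 3 gave 0.19.

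The remaining genes, grouped here with the inhibitors, encode feedback regulators that act upstream of IκB. TNFAIP3 (chromosome 6, 137867188 to 137883312) encodes A20, which edits ubiquitin chains on signalling proteins and dampens IKK activation. It was at 5.17, 4.65 and 5.05 FPKM without LIG and at 4.94, 4.91 and 4.34 FPKM with LIG, so the groups overlapped. The interval of its log2 change ran from -0.23 to 0.11 around -0.06 (limma adjusted p = 0.939). Leaving out 1 library moved the value between -0.09 (without TGF-β replicate 2) and -0.01 (without LIG replicate 3), with -0.03 without TGF-β replicate 1. TNFAIP3 exons overlap AL357060.1 on the opposite strand. BIRC3 (chromosome 11, 102317450 to 102339403) encodes cIAP2, which ubiquitinates RIPK1 and takes part in NIK turnover. It was at 5.14, 4.62 and 4.86 FPKM without LIG and at 5.73, 5.34 and 4.50 FPKM with LIG. LIG replicate 3 was the lowest of all 6, the other 2 LIG libraries were the highest, and the log2 change was 0.07 (interval -0.13 to 0.28, limma adjusted p = 0.931). Dropping LIG replicate 3 gave 0.15, dropping LIG replicate 1 gave 0.01 and dropping TGF-β replicate 2 gave 0.04. TNFAIP3 and BIRC3 carry the same motif as NFKB2 and NFKBIA in the sequences printed above.

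The balance of inhibitor and subunit transcripts was also computed within each library. Summed FPKM of the 5 subunits was 97.0, 89.9 and 96.2 without LIG and 107, 110.0 and 115 with it. The sum of NFKBIA, NFKBIB and NFKBIE was 57.5, 62.3 and 55.8 with TGF-β and 62.7, 66.6 and 79.9 with LIG. Their quotient was 0.622 ± 0.062 with TGF-β and 0.628 ± 0.058 with LIG (SD, n = 3 each), a difference smaller than the spread between replicates. The quotient was highest in TGF-β replicate 2 (0.693) and LIG replicate 3 (0.694).

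Gene length went with the position of the members in the libraries that stand apart. The lengths behind the FPKM values were 1559 bases for NFKBIA, 2275 to 2547 for RELB, NFKBIE, NFKBIB and RELA, 3776 for NFKB2, 4464 for NFKB1, 6988 for BIRC3, 8616 for TNFAIP3 and 11393 for REL. LIG replicate 3 lay below the mean of the other 2 LIG libraries in the 4 longest members, by log2 differences of -0.49 in REL, -0.25 in BIRC3, -0.15 in TNFAIP3 and -0.05 in NFKB1. It lay above them in the 6 shortest, by 0.07 in RELA to 0.40 in NFKBIB. Over the 10 members the Spearman correlation of this difference with length was -0.87, as a description of genes that share these libraries. Over all genes of similar length the median difference was -0.25 in the length bin that holds REL, -0.17 in that of TNFAIP3, 0.05 in that of NFKB2 and 0.17 in that of RELB and NFKBIB. NFKBIB, RELB, NFKBIE and NFKB2, at 0.40, 0.32, 0.28 and 0.18, were thus above the median of genes of their length in LIG replicate 3, as NFKBIA (0.25 against 0.23) and TNFAIP3 were by less. RELA (0.07), NFKB1 (-0.05, against 0.01), BIRC3 (-0.25, against -0.10) and REL were below theirs. The difference of LIG replicate 3 also went with GC content over the 10299 genes with a GC value (Spearman correlation 0.33, and -0.37 for LIG replicate 1). GC content was 60.5% to 65.4% in NFKBIB, RELB, NFKBIE and NFKB2. It was 53.1% in NFKBIA, 49.5% in TNFAIP3 and 34.8% to 57.1% in RELA, NFKB1, BIRC3 and REL. The part of GC content in these differences was not tested. In TGF-β replicate 2 the difference from the other 2 TGF-β libraries was -0.11 for NFKB2, where genes of its length had a median of 0.04. For genes of the length of RELA, RELB, NFKBIB and NFKBIE that median was 0.11, and the 4 members were at -0.10, -0.06, 0.03 and 0.29.

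**Figure D2:**
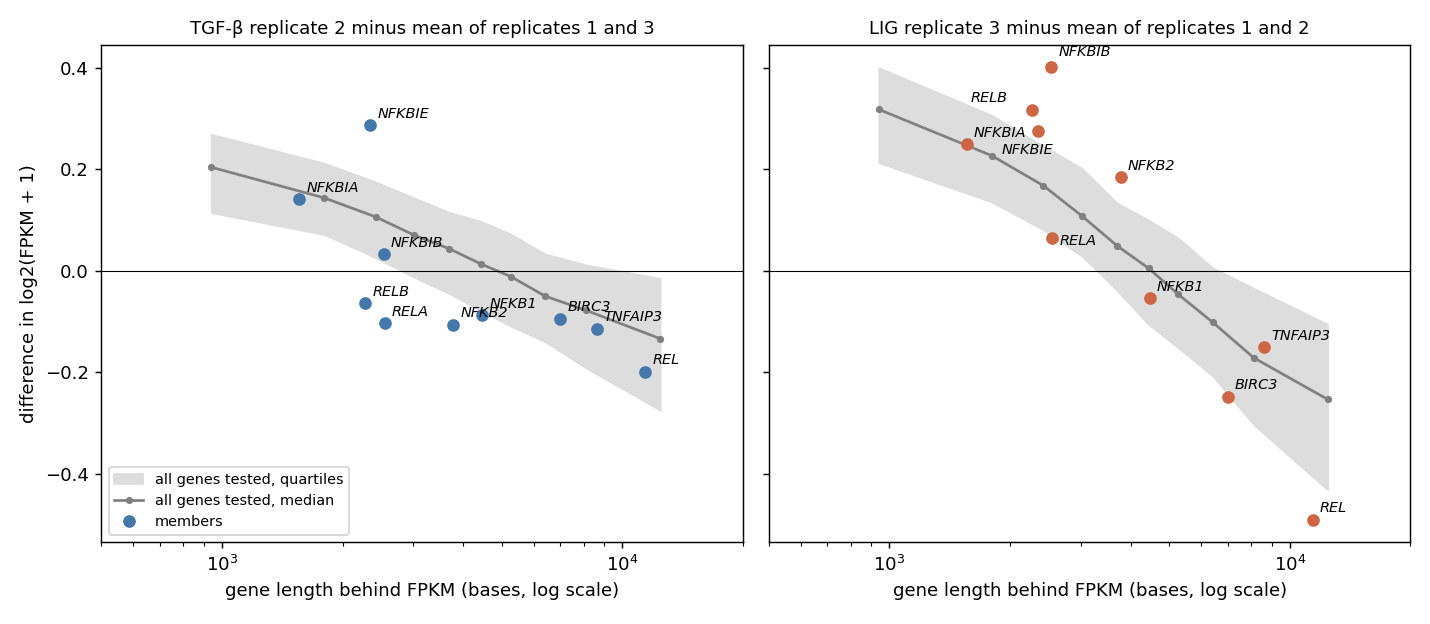
Difference in log2(FPKM + 1) of TGF-β replicate 2 (left) and LIG replicate 3 (right) from the mean of the other 2 libraries of the group, against gene length in bases (log scale). The grey line and band are the median and quartiles of all genes tested, by bins of length with equal numbers of genes, and the points are the 10 members. In LIG replicate 3 the 4 longest members lie below 0 and the 6 shortest above it.

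Removing a smooth trend on length and GC content from each library, an alternative chosen after seeing the data, made the intervals of the members narrower. NFKB2 then passed with a log2 change of 0.28 ± 0.05 (limma adjusted p = 0.0148) and RELB with 0.32 ± 0.06 (adjusted p = 0.0214). The other 8 did not pass, where 0.816% of the 10299 genes with a GC value were higher and 3.21% were called either way. Without both libraries that stand apart, NFKB2 (log2 change 0.24, limma adjusted p = 0.0131), RELB (0.25, adjusted p = 0.0272) and NFKBIE (0.29, adjusted p = 0.0185) passed, where 1.95% of all genes were higher. The 2 libraries were left out for their length balance, after it had been seen. With libraries weighted by quality, 6 members passed, but so did 10.4% of all genes in the same direction. NFKB2 and RELB passed in these 3 of 20 alternative fits, with adjusted p up to 0.523 and 0.659 when TGF-β replicate 3 was left out.

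**Figure D3:**
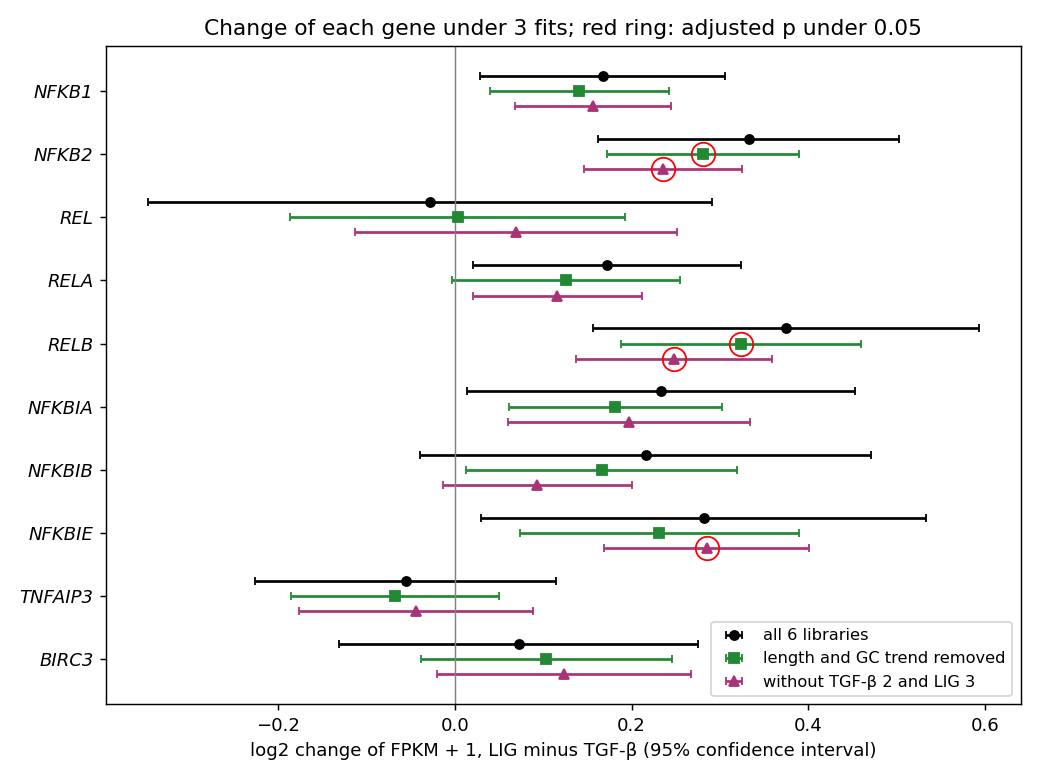
Log2 change of FPKM + 1 (LIG minus TGF-β, horizontal axis) of each gene with its 95% confidence interval under 3 fits, with a red ring where the adjusted p was under 0.05. No ring appears for the fit of all 6 libraries, and NFKB2 and RELB have rings in both other fits.

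The genes whose pattern over the 6 libraries was most like that of RELA, the most abundant subunit, were PDE2A, VPS26B and CC2D1A (Pearson r of log2(FPKM + 1) from 0.991 to 0.993). For NFKBIA, the most abundant inhibitor, they were ASGR1, ORAI1 and SF3B4 (r from 0.984 to 0.995). With 6 libraries, 54 and 80 of the other 10694 genes reached an r above 0.95, so many genes share such a pattern. None of the 6 named genes passed the test.

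Other genes of the pathway were read from 7 lists with 125 further genes, of which 89 were tested. Of these, IL1B and CXCL8 rose, PIM1 fell and 86 did not pass, with a median log2 change of 0.07, where 0.692% of all genes were called. An unadjusted limma p under 0.05 was seen in 22 of the 89, against 8.41% of all genes, and the counts of single lists below are to be read beside that share. The lists were chosen with earlier results of these data known, so these counts are a description. The ligand gene IL1B, which encodes interleukin-1β, a strong activator of NF-κB and itself a target, went from 31.2, 35.2 and 31.4 FPKM with TGF-β to 56.1, 60.2 and 64.2 FPKM with LIG (log2 change 0.86 ± 0.08, limma adjusted p = 0.00453). It was the 1 ligand of 4 tested that passed, and IL1A was at 7.0 ± 0.54 and 8.32 ± 0.27 FPKM (adjusted p = 0.378). The ligand HMGB1 was at 140.5 ± 11.6 and 135 ± 8.75 FPKM, and TNFSF12, which encodes TWEAK, at 3.75 ± 0.89 and 3.79 ± 0.29 FPKM. Another 7 ligand genes lay under the mean of 1 FPKM and were not tested, among them TNF, at a mean of 0.0383 FPKM and named after its value was seen.

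Of 24 receptor and adaptor genes, 14 were tested and none passed (limma, 4 at an unadjusted p under 0.05, median log2 change 0.11). LTBR, the lymphotoxin-β receptor that feeds the non-canonical route, had the smallest adjusted p of the list (0.231). Its level was 19.8, 19.1 and 20.3 FPKM without LIG and 22.4, 24.005 and 25.1 FPKM with LIG, and the groups were apart. Interleukin-1 receptor kinases IRAK1 and IRAK2 were at 30.1 ± 0.79 and 17.3 ± 0.02 FPKM without LIG and at 34.6 ± 2.57 and 19.4 ± 0.89 FPKM with LIG. CD40, another receptor of the non-canonical route, was at 21.4 ± 1.45 and 24.6 ± 2.20 FPKM (adjusted p = 0.576).

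None of the 13 tested IKK and kinase genes passed (limma, 2 at an unadjusted p under 0.05, median 0.06). MAP3K14 encodes NIK, the kinase that drives p100 processing. It was at 17.5, 14.2 and 17.6 FPKM without LIG and at 20.03, 20.4 and 18.6 FPKM with LIG, apart but close (adjusted p = 0.459). TAB1, a TAK1 partner, was at 3.43 ± 0.34 and 4.04 ± 0.13 FPKM, IKBKE at 2.68 ± 0.42 and 3.23 ± 0.15 FPKM, and MAP3K3 at 12.35 ± 1.41 and 13.4 ± 0.53 FPKM. Of 5 tested genes for atypical IκB proteins and IκB partners none passed, and none had an unadjusted p under 0.05 (limma, median 0.02). They included NFKBIZ at 10.5 ± 0.47 and 10.7 ± 0.76 FPKM, BCL3 at 1.97 ± 0.19 and 1.80 ± 0.27 FPKM, NKIRAS1 at 2.80 ± 0.34 and 3.14 ± 0.26 FPKM and NKIRAS2 at 16.9 ± 0.23 and 17.2 ± 0.16 FPKM.

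Ubiquitin regulators of the pathway did not pass either, with 0 of 23 called (limma, 5 at an unadjusted p under 0.05, median 0.04). TRAF1, an adaptor that binds cIAP2 and is itself an NF-κB target, was at 12.8, 9.57 and 12.6 FPKM without LIG and at 16.2, 16.1 and 14.3 FPKM with LIG (log2 change 0.39 ± 0.11, adjusted p = 0.285). TRAF5, another adaptor of TNF receptors, lay on the other side, at 3.74, 3.53 and 3.60 FPKM without LIG and at 2.76, 2.78 and 2.60 FPKM with LIG (adjusted p = 0.097). SPATA2, which recruits the deubiquitinase CYLD, was at 5.13 ± 0.24 and 6.06 ± 0.10 FPKM, and RBCK1, a subunit of the linear ubiquitin ligase, at 8.10 ± 0.09 and 9.58 ± 0.81 FPKM.

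Among the inflammatory targets 17 of 29 were tested, 1 rose and 16 did not pass (limma, 5 at an unadjusted p under 0.05, median 0.06). The called gene was CXCL8, a chemokine gene for neutrophil recruitment, at 9.78, 10.4 and 10.7 FPKM without LIG and 17.04, 16.9 and 19.4 FPKM with LIG (log2 change 0.73 ± 0.07, limma adjusted p = 0.00604, and 0.0510 without TGF-β replicate 3). CXCL5 was at 1.6 ± 0.12 and 2.52 ± 0.20 FPKM (adjusted p = 0.0504), CXCL1 at 7.23 ± 0.32 and 9.22 ± 1.37 FPKM, and the adhesion gene ICAM1 at 18.7 ± 0.34 and 21.5 ± 0.97 FPKM. Of 18 survival and feedback targets, PIM1 fell and 17 did not pass (limma, 6 at an unadjusted p under 0.05, median 0.07). PIM1 encodes a serine/threonine survival kinase, and it went from 8.86 ± 0.26 to 6.14 ± 0.05 FPKM (log2 change -0.47 ± 0.06, limma adjusted p = 0.0158). When single libraries were dropped, PIM1 passed in 1 of 6 fits, and its adjusted p reached 0.125 in the fit lacking TGF-β replicate 1. BCL2A1, an antiapoptotic gene, was at 16.9 ± 3.30 and 26.8 ± 6.14 FPKM (adjusted p = 0.282) and the cyclin gene CCND1 at 287 ± 9.58 and 338 ± 12.7 FPKM (adjusted p = 0.354).

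**Figure D4:**
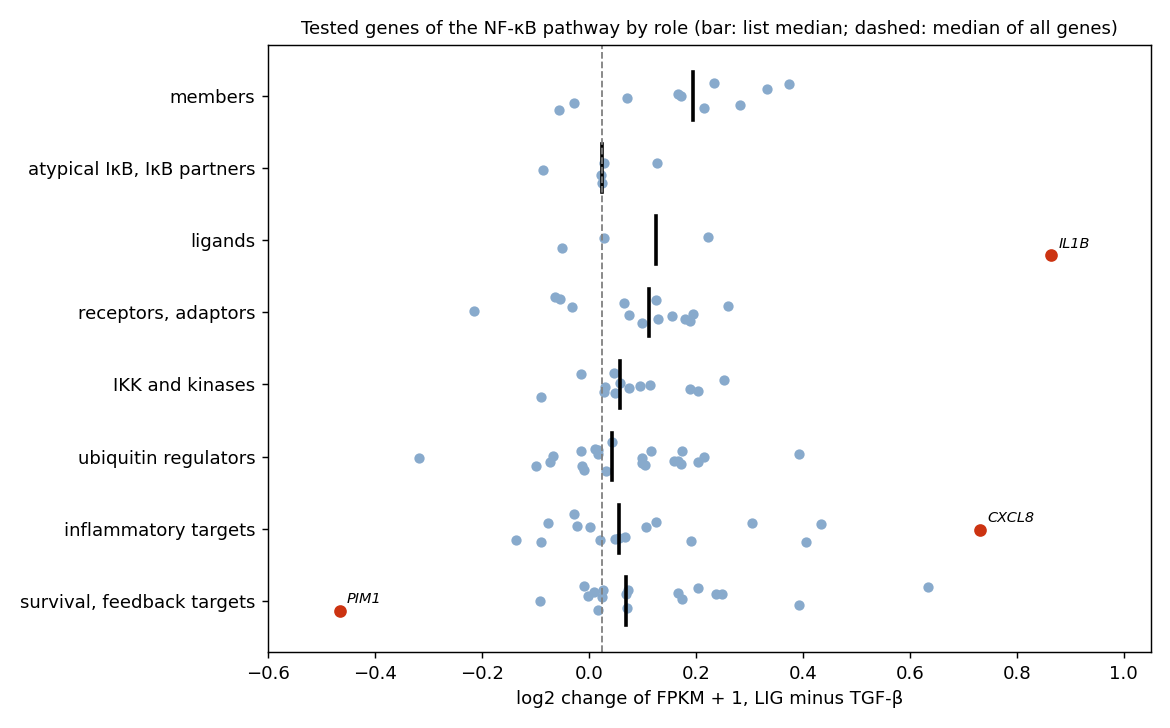
Log2 change of FPKM + 1 (LIG minus TGF-β, horizontal axis) of the tested genes of the NF-κB pathway by role, 1 point per gene, with a black bar at each list's median and a dashed line at the median of all genes tested (0.03). Red points are the 3 genes that passed, and the members' median lies at 0.19.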

How the data were processed

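The deposited table gives FPKM for each library, as computed by the authors. Tools listed without roles in the submitters' processing notes are HISAT2 2.1.0, fastp and DESeq2, with the build GRCh38.p13. The counting tool, annotation and use of strand are not given in the sources used here. Symbols were used as deposited, and gene coordinates came from GENCODE release 29 (GRCh38).

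Groups came from sample titles. Genes with a mean of at least 1 FPKM were tested on log2(FPKM + 1), a scale that understates changes of low genes. Limma 3.58.1 was run under R 4.3.3 with group only, a mean-variance trend, two-sided tests and Benjamini-Hochberg adjustment over all 10695 genes at 0.05. With 3 libraries a group, exact permutation gives no p below 0.1. FPKM steps gave whole fragments within 0.01 for 99.99% of 114123 values above 0, and whole gene lengths. Counting error, as a coefficient of variation in the library with the fewest fragments, ran from 1.51% (RELA) to 5.84% (REL).

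Members and lists were chosen with earlier results of these data known. Named genes were the members, list genes that passed or had the 4 smallest adjusted p, and the 3 genes most like RELA and NFKBIA. Alternatives were other pseudocounts, filters, scalings, variance models and sets of libraries, a replicate block and limma voom on fragments. The length and GC trend (loess, span 0.3, GENCODE transcripts for 96.3% of genes) was added after seeing the data. The main limma fit, and none of the alternatives, was tested on simulated data. These had independent noise, no length trend and changes larger than those of the members.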

Additional observations from a re-analysis of the deposited data

How the results depend on the processing

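Of 198 values of the members' log2 changes under 20 alternatives, 182 kept their direction and their side of the threshold, 11 came to pass and 5 changed sign. All 5 were of REL: 0.10 with library quality weights, 0.07 without both libraries that stand apart, 0.00 with the length and GC trend removed, and from -0.12 to 0.13 when 1 library was left out, where dropping TGF-β replicate 1 (0.03) or LIG replicate 3 turned it positive. Members called numbered 6 with quality weights, 3 without both libraries and 2 with the trend removed, and 0 otherwise, including each fit that left out 1 library. Of all genes, 14 were called with no filter on low values, 1891 with quality weights, 22 with the replicate block, 497 without both libraries and 331 with the trend removed, against 74. Leaving out 1 library gave 11 to 93. Of the 89 other pathway genes tested, 3 were called, against 1 of the 121 tested with no filter. Of the 89, calls numbered 33 with quality weights, 13 without both libraries, 8 with the trend removed, and 1 to 3 when 1 library was left out. Why the number of calls differed between fits was not tested.

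The replicate numbers were not taken to pair the libraries. Deviations from the group means correlated at 0.469, -0.574 and -0.337 for numbers 1, 2 and 3, and TGF-β replicate 2 went best with LIG replicate 3 (0.675). As these are the libraries that stand apart in length balance, the correlations cannot show whether libraries of the same number were paired. With the replicate block NFKB2 had an adjusted p of 0.379 and RELB one of 0.361. For REL, with 293 to 594 fragments per library, the spread between LIG libraries exceeded counting error.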
